A study of Mus musculus with 42 samples.

Results

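The mitochondrial ribosomal proteins were followed in mouse acute myeloid leukaemia (AML) cells taken from mice on a diet without branched-chain amino acids (BCAA-free) or on a standard amino acid diet (AA), with or without chemotherapy. Members were the protein-coding genes whose symbol starts with Mrpl or Mrps and a digit, after mouse Ensembl identifiers had been matched to symbols. This rule took 78 of the 55487 identifiers in the count tables, 49 named for the large subunit (Mrpl) and 29 for the small subunit (Mrps), and left out 5 pseudogenes whose symbols hold "-ps". The choice used symbols only and no measured value. All 78 members passed the filter on low counts in the footprint libraries and in the mRNA libraries.

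Each of 21 mice gave 1 ribosome footprint library, which counts the mRNA fragments held by ribosomes, and 1 mRNA library made by Smart-seq2 from the same lysate, by a low-input protocol named Ribo-lite. The 4 groups were BCAA-free 5+3 (7 mice), BCAA-free vehicle (5 mice), AA 5+3 (4 mice) and AA vehicle (5 mice). 5+3 was cytarabine at 100 mg/kg daily for 5 days with doxorubicin (3 mg/kg) added on days 1 to 3, given intraperitoneally, and vehicle was PBS. All groups carried the same MLL-AF9 leukaemia, with a WT genotype label, a GFP reporter and luciferase driven by the β-actin promoter. The leukaemia came from 1 terminally ill mouse and was expanded in culture before injection into male recipients aged 8 to 10 weeks that had received no preconditioning, so the mice share 1 source of cells. Treatment began at a critical leukaemia burden, mice were killed at the maximum response to chemotherapy, and viable GFP+ bone marrow cells were sorted after lysis of red cells. The library numbers of the AA vehicle mice, unlike those of the other groups, end in a B of unstated meaning. A batch behind that letter and the AA vehicle group cannot be told apart.

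Mitochondria have ribosomes of their own, built from RNA encoded in mitochondrial DNA and from proteins that are encoded in the nucleus, made on cytosolic ribosomes and imported. These ribosomes make only the proteins encoded in mitochondrial DNA, which are core subunits of the respiratory chain and the ATP synthase. The small subunit reads the mRNA, and the large subunit joins the amino acids and holds the exit tunnel. Many mitoribosomal proteins have bacterial homologues, while others occur in mitochondria only. AML cells are known for their dependence on mitochondrial translation and respiration.

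Promoter sequence was searched in the 69 members that have an entry in the RefSeq promoter table (build GRCm38.p6, 250 bases before the start to 50 after it), for the letters of 4 motifs on both strands. A gene counted when any of its promoter entries held the letters. The ETS letters CCGGAAG stood in 26 of 69 members (37.7%), against 12.9% of 17492 protein-coding genes and 9.93% of all 27025 genes with an entry. The YY1 letters AAGATGGCG stood in 8 members (11.6%), against 2.14% of protein-coding and 1.64% of all genes. The NRF1 letters, those in capitals in the Mrpl9 stretch below, stood in 3 members (4.35%), against 1.47% of protein-coding and 1.07% of all genes. The E-box letters CACGTG stood in 5 members (7.25%), against 8.91% of protein-coding and 8.09% of all genes. None of the 4 was found in 32 members, and 5 members held 2 or more kinds. No searched motif contains another. A match is a description of letters and not evidence of binding. The stretches below are from members whose footprints or mRNA are described in the results, with the motif in capitals and each read 5′ to 3′ on the strand of the gene; CTTCCGG is the ETS motif read on the opposite strand.
Mrpl9, NRF1 letters, chr3:94443298-94443327, plus strand: aggcgcagctGCGCATGCGCggggtccttc
Mrpl35, YY1 letters, chr6:71823742-71823771, minus strand: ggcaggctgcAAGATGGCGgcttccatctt
Mrpl52, ETS letters, chr14:54426842-54426901, plus strand: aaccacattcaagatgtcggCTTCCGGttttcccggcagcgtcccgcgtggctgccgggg
Mrpl21, ETS letters, chr19:3283038-3283067, plus strand: cgctgcttccgCTTCCGGttgggactgtgg
Mrps16, ETS letters, chr14:20393546-20393575, minus strand: ttgggggcgctCTTCCGGgcttcaggctct
Mrps12, ETS letters, chr7:28741802-28741831, minus strand: aaggaggaaccCCGGAAGgggctggaggta
Mrpl3, ETS letters, chr9:105053208-105053267, plus strand: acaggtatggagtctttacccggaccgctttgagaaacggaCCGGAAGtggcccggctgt
Mrps27, ETS letters, chr13:99344727-99344756, plus strand: tggtaggaccaCTTCCGGcggaggcgggct
In these stretches the motif began at base -28 in Mrpl9, 24 in Mrpl35, -47 in Mrpl52, 8 in Mrpl21, -74 in Mrps16, 2 in Mrps12, -19 in Mrpl3 and -48 in Mrps27, where 1 is the start base of the promoter entry and -1 the base before it. The annotated gene begins upstream of that start in Mrpl9 (chr3:94443154), Mrps16 (chr14:20393634), Mrpl21 (chr19:3282997) and Mrps27 (chr13:99344767). The printed Mrpl9 and Mrps16 stretches therefore lie within the annotated gene despite their negative positions.

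Footprint libraries held 2697092 to 8863472 gene counts and mRNA libraries 30996200 to 70437713. Protein-coding genes took 48.9 to 56.2% of footprint counts and 89.1 to 94.5% of mRNA counts. The 78 members together had 3552 to 14577 footprint counts and 326641 to 833490 mRNA counts per library. A member's mean count per library ran from 16.3 (Mrpl53) through a median of 91.8 to 221 (Mrpl24) in footprints, and from 1046 (Mrps31) through 5889 to 38563 (Mrpl33) in mRNA. Markers of leukaemia and myeloid progenitors (8 of 8 detected, among them Ptprc, Mpo and Elane) summed to 5766 to 7517 CPM of footprints in BCAA-free 5+3, 5957 to 8716 in BCAA-free vehicle, 8030 to 9992 in AA 5+3 and 5021 to 8366 in AA vehicle mice, where CPM is the read count scaled for library size by TMM. No pair of libraries in a group agreed within sampling noise. In an earlier analysis of these data 4 mRNA libraries stood apart on the first principal component, those of BCAA-free vehicle mice 1, 2 and 5 and of BCAA-free 5+3 mouse 7. On the log2 CPM of these libraries that component (30.1% of the variance) placed the vehicle mice at -45.4, -52.9 and -88.7, the lowest values of all, and 5+3 mouse 7 at -17.7, within the range of the AA mice. Counts of called members are therefore given with and without these 4 mice, as are the members' summed shares, their footprint to mRNA ratio and the calls in the other lists of translation genes, for which leaving them out was chosen after seeing the data.

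The members together took a small part of all footprints. Their share of protein-coding footprints was 0.310% ± 0.0242 (SD, n = 7) in BCAA-free 5+3 mice (0.263 to 0.342%), against 0.281% ± 0.00755 (n = 5) in BCAA-free vehicle mice (0.270 to 0.290%). It was 0.280% ± 0.0101 (n = 4) in AA 5+3 mice (0.273 to 0.295%), against 0.277% ± 0.0232 (n = 5) in AA vehicle mice (0.250 to 0.302%). The ranges of all 4 groups overlap, and the sum carries no test. In mRNA the same share was 1.24% ± 0.288 (n = 7) in BCAA-free 5+3 mice, against 1.34% ± 0.228 (n = 5) in BCAA-free vehicle mice. It was 1.18% ± 0.177 (n = 4) in AA 5+3 mice, against 1.17% ± 0.130 (n = 5) in AA vehicle mice, so mice within a group differed more than the group means did. With the 4 mice that stood apart left out, the footprint share averaged 0.309% in 6 BCAA-free 5+3 mice and 0.286% in 2 BCAA-free vehicle mice, and the mRNA share averaged 1.15% in BCAA-free 5+3 and 1.16% in BCAA-free vehicle mice. Footprints of Mrpl genes exceeded those of Mrps genes by a ratio of 1.77 ± 0.0345 in BCAA-free 5+3, 1.74 ± 0.0294 in BCAA-free vehicle, 1.83 ± 0.0345 in AA 5+3 and 1.80 ± 0.0577 in AA vehicle mice. The mRNA ratio was 2.07 ± 0.0485 in BCAA-free 5+3, 1.99 ± 0.0440 in BCAA-free vehicle, 2.05 ± 0.0336 in AA 5+3 and 2.02 ± 0.0430 in AA vehicle mice. These ratios depend on gene number and length and are compared between groups only.

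**Figure D1:**
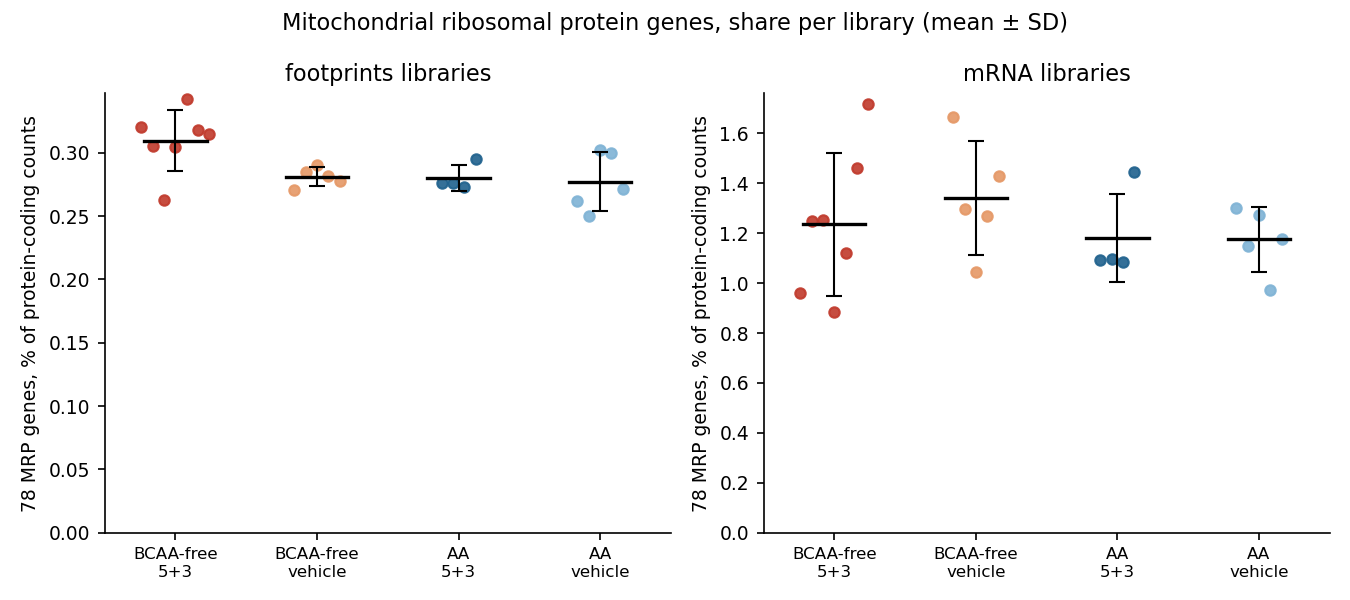
Share of protein-coding counts taken by the 78 members in each mouse (points), with the group mean and SD, for footprints and mRNA, in percent. Footprint shares lie between 0.250 and 0.342% and mRNA shares between 0.885 and 1.72%, with overlapping groups.

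To ask what 5+3 did to the translation of these genes on the BCAA-free diet, footprints in BCAA-free 5+3 mice were set against those in BCAA-free vehicle mice. With edgeR's quasi-likelihood test and Benjamini-Hochberg adjustment over 15723 genes, 8 members rose and 1 fell past an adjusted p of 0.05, 11.5% of the members. Of all genes tested 20.6% passed, 8.76% higher and 11.9% lower. By symbol, 7 of 49 Mrpl genes rose and 1 fell, and 1 of 29 Mrps genes rose and none fell. The median log2 change was 0.13 over the members, of which 59 were above 0, against -0.02 over all genes tested and -0.10 over protein-coding genes. When the fit was made on protein-coding genes alone, 21 members rose and none fell, beside 10.6% higher and 11.6% lower of 9875 genes, and the member median was 0.22.

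Most of the members that rose carry large-subunit symbols, as do 49 of all 78 members. Mrpl54, a large-subunit protein particular to mitochondria, had 15.5 to 18.0 CPM (median 16.5) in BCAA-free 5+3 mice, against 12.7, 13.2, 11.3, 10.2 and 9.74 CPM in BCAA-free vehicle mice. For groups of 7 the range and median are given, for smaller groups every mouse. The groups did not overlap, and the log2 change was 0.53 (SE 0.14, adjusted p = 0.00868). Mrpl17, homologous to a bacterial large-subunit protein, had 34.2 to 61.2 CPM (median 44.8) in BCAA-free 5+3 mice, against 38.4, 32.3, 29.3, 36.0 and 28.8 CPM in BCAA-free vehicle mice, with overlapping groups and a log2 change of 0.49 (SE 0.12, adjusted p = 0.00579). Mrpl9, whose promoter holds the NRF1 letters printed above, had 18.6 to 26.7 CPM (median 20.5) in BCAA-free 5+3 mice, against 17.6, 14.1, 17.6, 15.0 and 15.2 CPM in BCAA-free vehicle mice. Every Mrpl9 value of the 5+3 mice was above every value of the vehicle mice, with a log2 change of 0.43 (SE 0.12, adjusted p = 0.0115). Mrpl16, which in bacteria has a homologue beside the tRNA sites, had 22.1 to 29.7 CPM (median 27.5) in BCAA-free 5+3 mice, against 20.0, 22.6, 23.6, 17.5 and 16.5 CPM in BCAA-free vehicle mice, with a log2 change of 0.41 (SE 0.11, adjusted p = 0.00866). The groups overlap for Mrpl16 through the lowest 5+3 mouse and the highest vehicle mice.

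Mrpl35 had 18.3 to 24.8 CPM (median 21.4) in BCAA-free 5+3 mice, against 18.7, 15.6, 18.5, 13.5 and 18.8 CPM in BCAA-free vehicle mice, with overlap and a log2 change of 0.34 (SE 0.11, adjusted p = 0.0300). The Mrpl35 call was lost without BCAA-free 5+3 mouse 5 (adjusted p = 0.058), vehicle mouse 2 (0.060) or vehicle mouse 4 (0.094). Mrpl12, the stalk protein that contacts translation factors, had 27.5 to 39.4 CPM (median 33.9) in BCAA-free 5+3 mice, against 26.5, 26.1, 26.9, 25.7 and 26.1 CPM in BCAA-free vehicle mice. The groups did not overlap, but its log2 change of 0.32 (SE 0.11, adjusted p = 0.0393) missed the threshold in 9 of the 12 fits that left out 1 mouse. Mrpl20, at 0.29 (adjusted p = 0.0481), and Mrps9, at 0.25 (adjusted p = 0.0494), named after their values were seen, complete the members that rose. Mrpl14, homologous to a bacterial protein at the interface of the subunits, was the member that fell, with 7.32 to 8.75 CPM (median 7.72) in BCAA-free 5+3 mice, against 8.93, 10.7, 10.7, 11.5 and 11.1 CPM in BCAA-free vehicle mice. No Mrpl14 value of a 5+3 mouse reached the lowest vehicle mouse, and the log2 change was -0.41 (SE 0.11, adjusted p = 0.0145). The Mrpl14 gene overlaps Tmem63b, 1 of 25 members that overlap another annotated gene (a protein-coding one in 20), and the strand setting of the counting is not given in the sources used here, so reads of such neighbours cannot be told apart.

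Markers of some other cells moved in the same comparison. All 5 of the 7 red cell markers that could be tested fell, by a median log2 change of -3.16, and their summed footprints were 7.32 to 25.7 CPM in BCAA-free 5+3 mice, against 111 to 213 CPM in BCAA-free vehicle mice, with no marker at 0 in either group. All 6 mature neutrophil markers fell too, with sums of 30.1 to 403 CPM in BCAA-free 5+3 mice, against 354 to 568 CPM in BCAA-free vehicle mice. In mRNA 6 of 7 red cell and 6 of 6 neutrophil markers fell. Of 5 B cell markers the 1 that could be tested in footprints fell (-0.71), and the 5 summed to 6.97 to 12.7 CPM (median 11.3) in BCAA-free 5+3 mice, against 14.2 CPM or more (median 17.1) in BCAA-free vehicle mice, without overlap. In mRNA the B cell sums overlapped, at 47.8 to 98.7 CPM in BCAA-free 5+3 mice, against 40.4 to 68.8 CPM in BCAA-free vehicle mice. Of 6 T and NK cell markers the 1 that could be tested in footprints fell too (-0.73), with overlapping sums of 2.83 to 6.77 CPM in BCAA-free 5+3 mice, against 6.12 to 10.4 CPM in BCAA-free vehicle mice. Summed footprints of 6 resident macrophage markers overlapped, at 103 to 160 CPM in BCAA-free 5+3 mice, against 108 to 136 CPM in BCAA-free vehicle mice. Sums of megakaryocyte and of stroma and endothelium markers overlapped as well. The part of all these markers in the results on the members was not tested, and in bulk libraries fewer cells of a type and less RNA per cell cannot be told apart. Of the named calls, Mrpl54, Mrpl17, Mrpl9, Mrpl16 and Mrpl14 held whichever single mouse was left out, and counts of called members were 5 to 10, the lowest without BCAA-free 5+3 mouse 5. Mrpl14, the only member that fell, was not called by DESeq2 (adjusted p = 0.0535). By edgeR its call was also lost with protein-coding genes only (adjusted p = 0.0544) and with no filter on low counts (0.181). Without the 4 mice that stood apart, 2 vehicle mice remained, no member passed, and 395 genes passed in all. Of the footprint markers, all 5 red cell and 3 of 6 neutrophil markers still fell, and no B cell or T and NK cell marker was called. The median over the members was then 0.14.

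**Figure D2:**
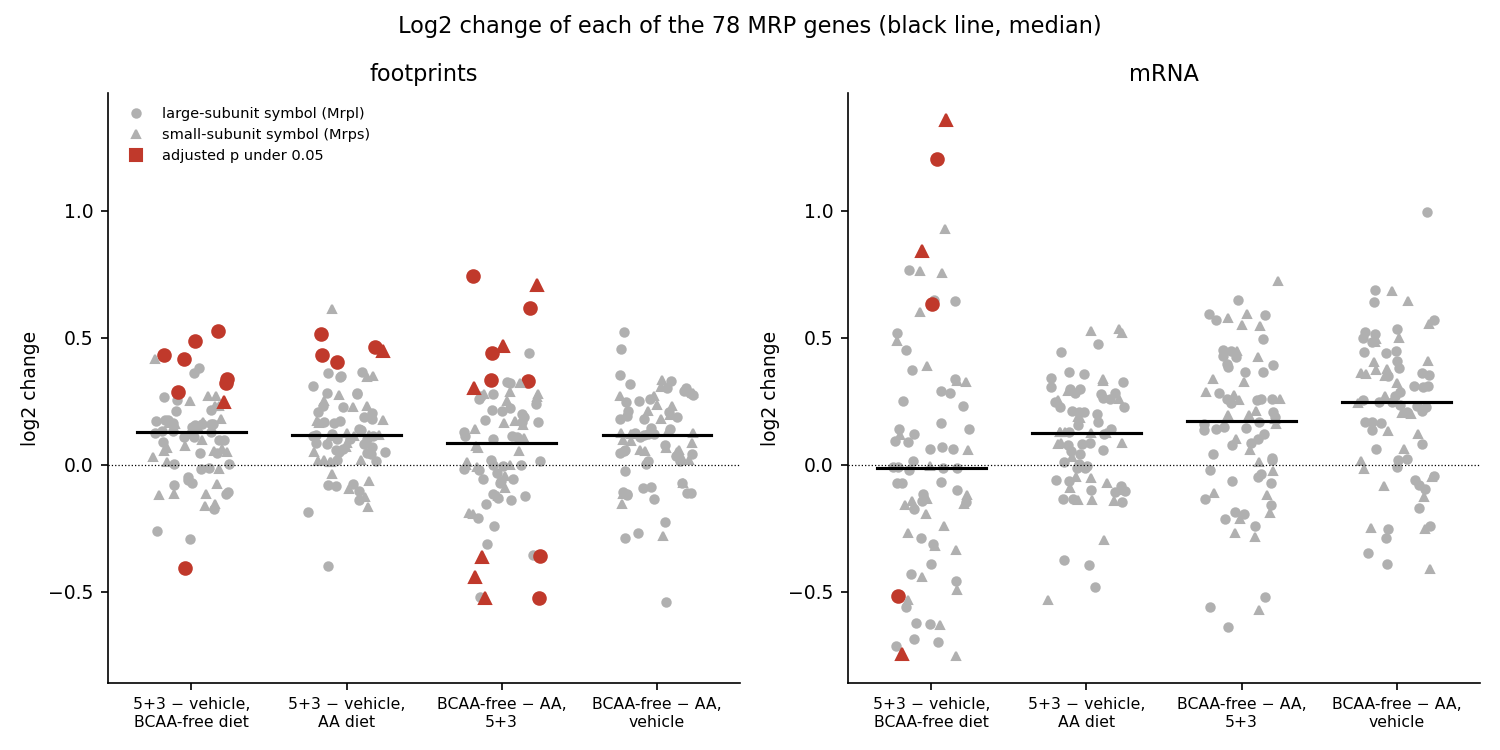
Log2 changes of the members in footprints and in mRNA in the 4 pairwise comparisons, each point 1 member, with Mrpl and Mrps genes apart and called members marked. Most footprint points lie within 0.5 of 0, with medians of 0.13, 0.12, 0.09 and 0.12. The mRNA medians are -0.01, 0.13, 0.17 and 0.25, and 24 of 78 members lie beyond 0.5 for 5+3 on the BCAA-free diet. Without the 4 mice that stood apart the mRNA medians were 0.24, 0.15, 0.07 and -0.06.

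On the AA diet, 5 members rose and none fell after 5+3, 6.41% of the members, while 6.61% of all genes tested passed, 3.49% higher and 3.12% lower. They were 4 Mrpl genes and 1 Mrps gene. The median over the members was 0.12, with 66 above 0, against -0.02 over all genes and 0.00 over protein-coding genes. Mrpl18, homologous to a bacterial protein of the central protuberance of the large subunit, had 30.8, 22.8, 29.8 and 29.3 CPM in AA 5+3 mice, against 18.8, 16.7, 19.9, 21.5 and 20.6 CPM in AA vehicle mice, with a log2 change of 0.52 (SE 0.13, adjusted p = 0.0206). Mrpl35 had 23.3, 21.3, 22.2 and 19.7 CPM in AA 5+3 mice, against 13.7, 15.6, 17.8, 17.7 and 12.8 CPM in AA vehicle mice, with a log2 change of 0.46 (SE 0.13, adjusted p = 0.0273). Mrpl21 had 21.6, 20.6, 20.3 and 20.9 CPM in AA 5+3 mice, against 16.1, 14.5, 15.3, 15.4 and 15.9 CPM in AA vehicle mice, with a log2 change of 0.43 (SE 0.13, adjusted p = 0.0435). In each of these genes every AA 5+3 mouse was above every AA vehicle mouse. Mrpl30 had 17.1, 19.3, 16.3 and 20.3 CPM in AA 5+3 mice, against 12.1, 12.6, 12.9, 15.0 and 15.7 CPM in AA vehicle mice, with a log2 change of 0.40 (SE 0.12, adjusted p = 0.0410). Mrps16, a small-subunit protein with a bacterial homologue, had 24.6, 22.1, 18.7 and 23.3 CPM in AA 5+3 mice, against 14.1, 18.6, 13.4, 18.1 and 17.0 CPM in AA vehicle mice, with a log2 change of 0.45 (SE 0.14, adjusted p = 0.0455), and here too the groups did not overlap. Mrpl18 overlaps the gene Tcp1 and Mrpl21 overlaps Ighmbp2. No red cell marker and 1 of 6 neutrophil markers fell in this comparison.

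These calls rest on few mice. Without the 4 mice that stood apart, none of which is in this comparison but which share in the estimate of spread, 4 members rose and none fell, beside 464 higher and 404 lower of 16545 genes. Mrps16 (edgeR, adjusted p = 0.0671) and Mrpl30 (0.0515) were not among these 4. The count was 0 without AA 5+3 mouse 1, 1 without mouse 2, 2 without mouse 3 and 3 without mouse 4, and it was 2 without AA vehicle mouse 1, 3 or 5. Of 9 fits that left out 1 mouse, Mrpl21 missed the threshold in all 9 (adjusted p 0.0538 to 0.105), Mrps16 in 6, Mrpl30 in 6, Mrpl35 in 5 and Mrpl18 in 2. Of 7 alternative settings, the fit without the 4 mice among them, Mrpl30 missed it in 5, DESeq2 included (adjusted p = 0.0622). Mrps16 missed it in 3, Mrpl35 in 2, Mrpl21 in 1 and Mrpl18 in none. Mrpl35 was the member that rose after 5+3 on both diets. The same direction was called for 5 members in 2 of the 4 pairwise footprint comparisons and for none in 3 or more. Of the 78 members, 21 were called in at least 1 of those comparisons and 57 in none. Of all genes tested, 20.6% passed for 5+3 on the BCAA-free diet and 6.61% on the AA diet. Between diets 28.3% passed under 5+3 and 2.04% under vehicle. The share of all genes called in at least 1 of the comparisons was not counted, so the members' count has no such share beside it. The comparisons share mice with each other, so these counts are not independent of one another.

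Among mice given 5+3, footprints on the BCAA-free diet were set against those on the AA diet. Here 8 members were higher and 5 lower, 16.7% of the members, beside 28.3% of all genes tested, 12.5% higher and 15.8% lower. By symbol, 5 Mrpl genes were higher and 2 lower, and 3 Mrps genes were higher and 3 lower. The member median was 0.09, with 47 above 0, against 0.00 over all genes and -0.07 over protein-coding genes. With protein-coding genes alone 23 members were higher and 2 lower, beside 30.6% of all genes in that fit (14.0% higher, 16.6% lower), and the member median was 0.17. The split between higher and lower members therefore moved with the genes used in the fit.

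Mrps9, homologous to a protein of the head of the bacterial small subunit, had 35.8 to 49.4 CPM (median 40.1) in BCAA-free 5+3 mice, against 25.0, 25.4, 28.2 and 22.1 CPM in AA 5+3 mice. No mouse of either group came near the other, and the log2 change was 0.71 (SE 0.10, adjusted p = 1.51e-05). Mrpl52, a large-subunit protein particular to mitochondria, had 9.01 to 14.9 CPM (median 12.9) in BCAA-free 5+3 mice, against 7.05, 8.02, 8.13 and 6.80 CPM in AA 5+3 mice, again without overlap and with a log2 change of 0.74 (SE 0.16, adjusted p = 0.000996). Mrpl9 had 18.6 to 26.7 CPM (median 20.5) in BCAA-free 5+3 mice, against 12.4, 12.4, 16.0 and 15.4 CPM in AA 5+3 mice, also without overlap and with a log2 change of 0.62 (SE 0.13, adjusted p = 0.000983). Mrps28, of the small subunit, had 23.4 to 32.6 CPM (median 27.6) in BCAA-free 5+3 mice, against 26.1, 16.9, 18.7 and 17.4 CPM in AA 5+3 mice, with a log2 change of 0.47 (SE 0.14, adjusted p = 0.0142). A single AA mouse, the first, lay within the BCAA-free range of Mrps28, and the call was lost without AA 5+3 mouse 2 (adjusted p = 0.053) or 4 (0.059). Mrpl50, of the large subunit, had 13.1 to 21.7 CPM (median 19.8) in BCAA-free 5+3 mice, against 15.0, 13.0, 10.8 and 16.0 CPM in AA 5+3 mice, with overlap and a log2 change of 0.44 (SE 0.14, adjusted p = 0.0184). Mrpl23, which sits at the exit of the tunnel in bacteria, had 27.3 to 38.9 CPM (median 35.3) in BCAA-free 5+3 mice, against 28.2, 24.9, 28.5 and 28.7 CPM in AA 5+3 mice, with overlap and a log2 change of 0.33 (SE 0.11, adjusted p = 0.0243). Without AA 5+3 mouse 3 the Mrpl50 call was lost (0.070), and without mouse 2 that of Mrpl23 (0.077). Mrpl12, at 0.33 (adjusted p = 0.0389), and Mrps30, at 0.30 (adjusted p = 0.0469), were the other higher members; Mrps30, despite its symbol, is a protein of the large subunit.

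Of the 5 lower members, Mrpl14 had 7.32 to 8.75 CPM (median 7.72) in BCAA-free 5+3 mice, against 11.5, 12.4, 9.49 and 12.4 CPM in AA 5+3 mice, with no overlap and a log2 change of -0.52 (SE 0.12, adjusted p = 0.00217). Mrps15, with a bacterial homologue in the small subunit, had 12.3 to 16.8 CPM (median 13.5) in BCAA-free 5+3 mice, against 16.9, 18.7, 18.2 and 18.9 CPM in AA 5+3 mice, just without overlap and with a log2 change of -0.36 (SE 0.11, adjusted p = 0.0143). Mrpl21 had 11.3 to 18.2 CPM (median 16.8) in BCAA-free 5+3 mice, against 21.6, 20.6, 20.3 and 20.9 CPM in AA 5+3 mice, also without overlap, with a log2 change of -0.36 (SE 0.12, adjusted p = 0.0231). Mrps12, homologous to the bacterial protein of the decoding centre, had 7.79 to 11.7 CPM (median 8.75) in BCAA-free 5+3 mice, against 14.7, 14.7, 13.6 and 11.2 CPM in AA 5+3 mice. Its 2 highest BCAA-free mice passed the lowest AA mouse, and the log2 change was -0.52 (SE 0.17, adjusted p = 0.0248). Mrps25 had 8.53 to 16.8 CPM (median 13.2) in BCAA-free 5+3 mice, against 17.7, 15.4, 18.2 and 18.0 CPM in AA 5+3 mice, with overlap and a log2 change of -0.44 (SE 0.16, adjusted p = 0.0434) that missed the threshold in 9 of 11 fits leaving out 1 mouse. Mrps12 and Mrpl21 each missed it in 3 of those fits, all without 1 of AA 5+3 mice 1, 2 and 3. Mrpl52, Mrps9, Mrpl9, Mrpl14 and Mrps15 passed in all 11. Of these, only Mrps15 was lost with other settings of edgeR. They were protein-coding genes only (adjusted p = 0.0587), a replicate block (0.0796) and no filter on low counts (0.128). Mrpl21 was lost with the same 3 settings (0.0767, 0.0801 and 0.114 in that order). Of 7 alternative settings, Mrps25 missed the threshold in 4, DESeq2 among them (adjusted p = 0.0587), and Mrpl23 in 3. Mrps28, Mrpl50 and Mrps12 missed it in none.

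Counts without 1 mouse were 7 to 16, the lowest without AA 5+3 mouse 2, and without BCAA-free 5+3 mouse 5 the split was 6 higher and 8 lower. Without the 4 mice that stood apart, of which 1 is in this comparison, 7 members were higher and 4 lower, beside 1885 higher and 2066 lower of 16545 genes. Red cell markers were lower in BCAA-free 5+3 mice in all 5 that could be tested, with a summed level of 7.32 to 25.7 CPM there, against 93.3 to 151 CPM in AA 5+3 mice. Neutrophil markers were lower in 3 of 6, at 30.1 to 403 CPM, against 183 to 484 CPM. Their part in these results was not tested.

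**Figure D3:**
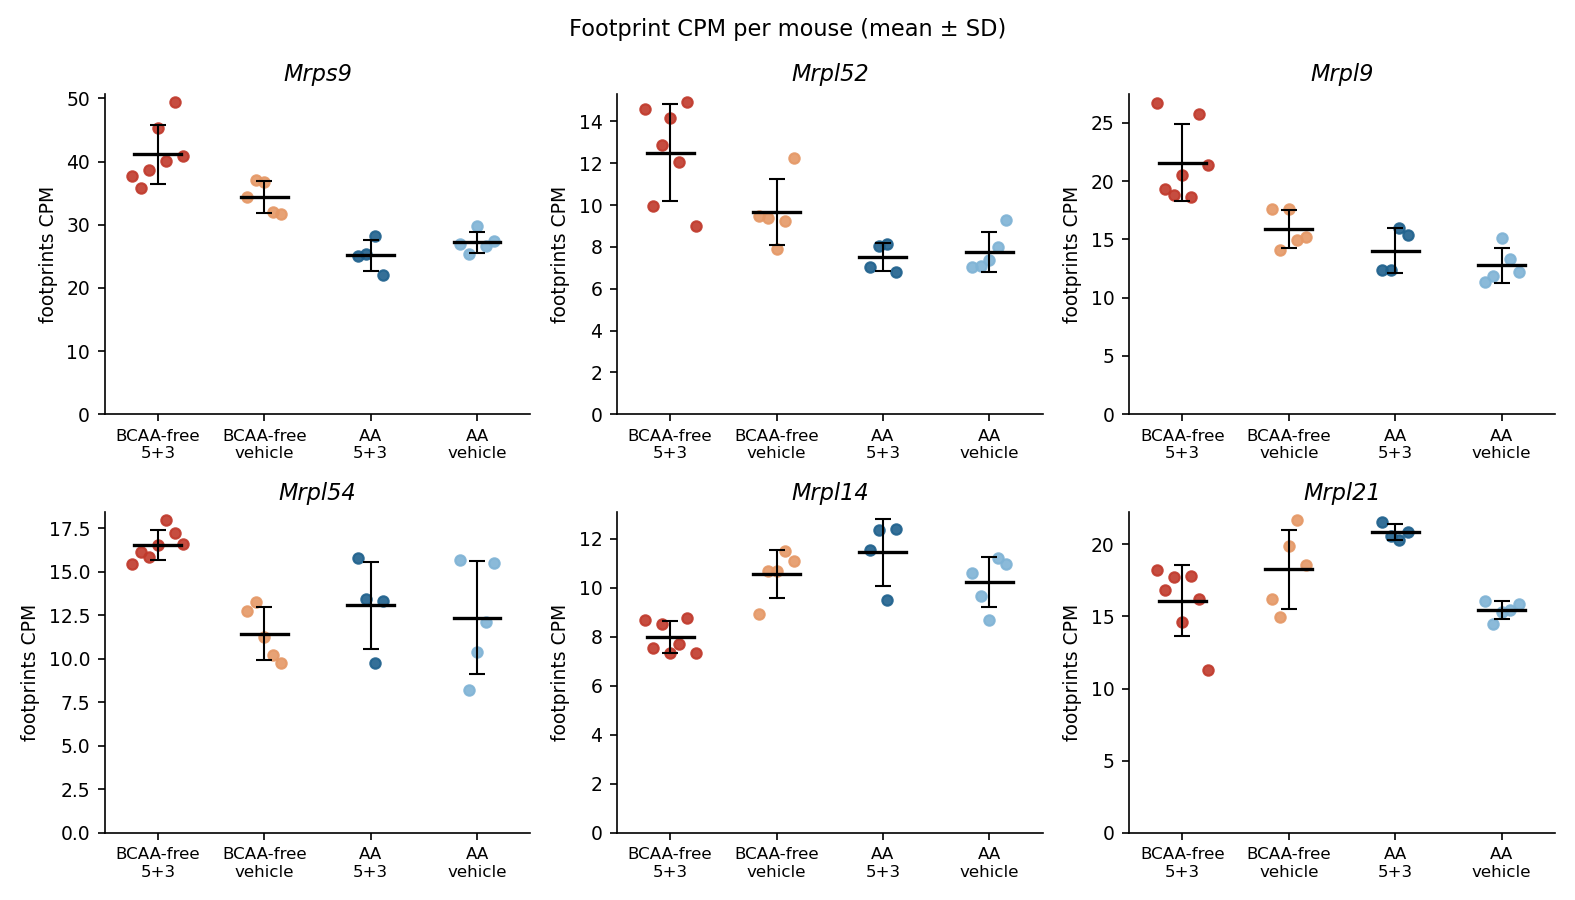
Footprint CPM per mouse of Mrps9, Mrpl52, Mrpl9, Mrpl54, Mrpl14 and Mrpl21 in the 4 groups, each point 1 mouse, with the group mean and SD. Mrps9 and Mrpl9 are highest and Mrpl14 lowest in BCAA-free 5+3 mice, and Mrpl21 is above 20 CPM in all 4 AA 5+3 mice.

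Under vehicle, the diets differed in no member by edgeR, beside 2.04% of all genes (0.642% higher, 1.40% lower). An unadjusted p under 0.05 was found for 15 of 78 members and for 2750 of 15723 genes. DESeq2 called 0 members and gave such p-values for 11 of 78 members and 2593 of 15723 genes. The median over the members was 0.12, with 60 above 0, against 0.00 over all genes and 0.02 over protein-coding genes. The smallest p-values were those of Mrpl34 and Mrps9. Mrpl34 had 12.7, 11.7, 9.71, 14.0 and 12.2 CPM in BCAA-free vehicle mice, against 7.84, 9.67, 6.43, 8.77 and 9.12 CPM in AA vehicle mice, without overlap, at 0.52 (SE 0.14, adjusted p = 0.0540). Mrps9 had 34.4, 37.2, 36.8, 32.0 and 31.7 CPM in BCAA-free vehicle mice, against 27.0, 25.3, 29.9, 26.6 and 27.4 CPM in AA vehicle mice, also without overlap, at 0.34 (SE 0.10, adjusted p = 0.0690). Mrpl34 passed when BCAA-free vehicle mouse 3 was left out (adjusted p = 0.044). Without the 4 mice that stood apart no member and no other gene passed in edgeR's test, 1630 genes had an unadjusted p under 0.05, and the member median was 0.10.

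Whether the effect of 5+3 differed between the diets was tested as an interaction, the log2 change after 5+3 on the BCAA-free diet minus that on the AA diet. Of all genes tested 7.09% passed (3.29% higher, 3.80% lower), and of the members 2 passed, both negative. Mrpl21 had an interaction of -0.60 (SE 0.17, adjusted p = 0.0319). Its 5+3 change was -0.17 (adjusted p = 0.274) on the BCAA-free diet and 0.43 on the AA diet. Footprints of Mrpl21 were 11.3 to 18.2 CPM (median 16.8) in BCAA-free 5+3 mice, against 16.2, 15.0, 19.9, 21.7 and 18.6 CPM in BCAA-free vehicle mice. Mrpl14 had an interaction of -0.57 (SE 0.17, adjusted p = 0.0439), with changes of -0.41 on the BCAA-free diet and 0.17 (adjusted p = 0.492) on the AA diet. Mrpl14 had 11.5, 12.4, 9.49 and 12.4 CPM in AA 5+3 mice, against 10.6, 9.67, 8.70, 11.2 and 10.9 CPM in AA vehicle mice. The Mrpl21 interaction missed the threshold in 6 and the Mrpl14 interaction in 16 of 21 fits that left out 1 mouse. DESeq2 did not call the Mrpl14 interaction (adjusted p = 0.107). With protein-coding genes only, edgeR called neither Mrpl21 (adjusted p = 0.0775) nor Mrpl14 (0.125). All 5 red cell markers tested had a negative interaction past the threshold, and 1 of 6 neutrophil markers did.

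A panel of members with known roles was read in every mouse. The stalk of the large subunit holds Mrpl12 on Mrpl10. Mrpl12 footprints were 25.4, 27.3, 22.8 and 28.7 CPM in AA 5+3 mice, against 17.2, 22.3, 16.8, 26.3 and 23.7 CPM in AA vehicle mice, a log2 change of 0.28 (adjusted p = 0.199). Mrpl10 had 13.0 to 15.6 CPM (median 14.6) in BCAA-free 5+3 mice, against 14.3, 16.2, 13.8, 15.2 and 19.7 CPM in BCAA-free vehicle mice. With the AA diet it had 18.8, 15.0, 15.2 and 14.4 CPM in AA 5+3 mice, against 16.5, 21.9, 14.9, 15.0 and 11.5 CPM in AA vehicle mice. Its groups overlap throughout and no comparison called it. Mrpl58, a peptidyl-tRNA hydrolase built into the large subunit, had 14.9 to 20.0 CPM (median 17.5) in BCAA-free 5+3 mice, against 15.4, 14.7, 16.5, 16.7 and 14.5 CPM in BCAA-free vehicle mice. Mrpl58 levels were 15.4, 16.7, 12.5 and 15.1 CPM in AA 5+3 mice, against 14.1, 18.6, 16.8, 15.6 and 14.4 CPM in AA vehicle mice, again with overlap and without a call. Mrpl3, in which variants in people cause mitochondrial cardiomyopathy, had 29.0 to 36.4 CPM (median 31.6) in BCAA-free 5+3 mice, against 26.3, 27.8, 30.1, 29.2 and 28.3 CPM in BCAA-free vehicle mice. Mrpl3 levels were 29.3, 26.0, 27.4 and 27.4 CPM in AA 5+3 mice, against 22.3, 18.6, 22.5, 27.1 and 21.3 CPM in AA vehicle mice. Its change after 5+3 missed the threshold on the BCAA-free diet, at 0.16 (adjusted p = 0.191), and on the AA diet, at 0.28 (adjusted p = 0.101).

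Mrpl23 had 40.9, 34.4, 34.5, 37.0 and 34.4 CPM in BCAA-free vehicle mice, against 25.1, 31.6, 36.9, 34.0 and 27.9 CPM in AA vehicle mice, with overlap. Mrpl44, which carries a ribonuclease III-like domain, had 21.6 to 30.2 CPM (median 25.4) in BCAA-free 5+3 mice, against 29.2, 25.6, 21.3, 24.0 and 24.2 CPM in BCAA-free vehicle mice. Mrpl44 levels were 27.3, 28.8, 28.5 and 27.1 CPM in AA 5+3 mice, against 29.0, 23.4, 19.1, 22.5 and 16.4 CPM in AA vehicle mice, the last of them the lowest of all. Neither gene was called after 5+3. Mrpl23 has a pseudogene, Mrpl23-ps1, with a mean of 170.0 footprint counts per library, beside 169 for Mrpl23 itself, so the division of reads between them is uncertain.

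In the small subunit, Mrps12 had 6.77, 6.62, 8.39, 11.7 and 11.8 CPM in BCAA-free vehicle mice, against 7.05, 11.9, 6.62, 8.77 and 10.0 CPM in AA vehicle mice. Its 5+3 change on the AA diet, 0.61 (adjusted p = 0.0531), missed the threshold. Mrps7, in the head, had 10.8 to 14.3 CPM (median 12.9) in BCAA-free 5+3 mice, against 16.8, 10.7, 14.3, 13.2 and 15.9 CPM in BCAA-free vehicle mice. Mrps7 levels were 15.8, 13.0, 10.6 and 15.3 CPM in AA 5+3 mice, against 15.3, 14.5, 10.2, 11.9 and 10.4 CPM in AA vehicle mice. Values of Mrps7 overlap in every pair of groups compared, and none of its tests passed. Mrps22, particular to mitochondria, had 18.1 to 24.6 CPM (median 20.6) in BCAA-free 5+3 mice, against 22.2, 23.5, 21.7, 18.5 and 19.3 CPM in BCAA-free vehicle mice. Mrps22 levels were 18.8, 21.3, 24.7 and 21.9 CPM in AA 5+3 mice, against 16.8, 19.3, 23.8, 17.7 and 20.8 CPM in AA vehicle mice. Mrps34, also particular to mitochondria, had 18.1 to 23.9 CPM (median 20.3) in BCAA-free 5+3 mice, against 21.7, 15.4, 15.7, 14.7 and 19.7 CPM in BCAA-free vehicle mice. Neither Mrps22 nor Mrps34 was called in any comparison. Mrps34 levels were 22.2, 26.9, 25.2 and 20.4 CPM in AA 5+3 mice, against 22.3, 25.3, 17.8, 20.6 and 20.2 CPM in AA vehicle mice.

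The paralogues Mrps18a, Mrps18b and Mrps18c share a bacterial homologue, and Mrps18a is placed in the large subunit. Mrps18a had 13.2 to 16.8 CPM (median 14.6) in BCAA-free 5+3 mice, against 14.1, 13.2, 13.2, 20.5 and 14.5 CPM in BCAA-free vehicle mice. Mrps18a levels were 16.2, 15.4, 13.3 and 16.0 CPM in AA 5+3 mice, against 11.8, 10.8, 17.0, 15.7 and 13.7 CPM in AA vehicle mice. Mrps18b had 21.4 to 32.9 CPM (median 26.5) in BCAA-free 5+3 mice, against 24.6, 24.4, 21.2, 23.5 and 22.2 CPM in BCAA-free vehicle mice. The lowest Mrps18b levels were those of the AA vehicle mice, with 27.8, 21.0, 23.9 and 24.6 CPM in AA 5+3 mice, against 18.0, 19.7, 19.3, 18.1 and 20.4 CPM in AA vehicle mice. Mrps18c had 35.5 to 46.6 CPM (median 40.8) in BCAA-free 5+3 mice, against 39.8, 33.1, 37.2, 34.0 and 34.9 CPM in BCAA-free vehicle mice. Mrps18c levels were 37.8, 36.2, 32.5 and 37.9 CPM in AA 5+3 mice, against 35.3, 31.6, 31.8, 33.7 and 34.7 CPM in AA vehicle mice. No footprint comparison called any of the paralogues. Mrps36, now known as a part of the 2-oxoglutarate dehydrogenase complex, had 15.8 to 24.0 CPM (median 19.4) in BCAA-free 5+3 mice, against 18.1, 18.2, 18.6, 18.7 and 16.1 CPM in BCAA-free vehicle mice. Mrps36 levels were 17.5, 18.7, 16.8 and 18.7 CPM in AA 5+3 mice, against 11.4, 10.0, 21.7, 15.0 and 14.2 CPM in AA vehicle mice, with AA vehicle mice 1 and 2 lowest. Mrps36 was not called, and its reads may be divided with its pseudogenes Mrps36-ps1 and Mrps36-ps2, whose mean footprint counts were 81.6 and 64.9 beside 91.4 for Mrps36.

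In mRNA, 4 members rose and 2 fell after 5+3 on the BCAA-free diet, 7.69% of the members, beside 8.56% of 21114 genes tested (4.33% higher, 4.23% lower). The median over the members was -0.01, with 36 above 0, against -0.01 over all genes and 0.05 over protein-coding genes. None of the 6 was called in footprints in the same comparison. Mrps27, a small-subunit protein with pentatricopeptide repeats, had 36.0 to 76.5 CPM (median 48.8) in BCAA-free 5+3 mice, against 35.8, 21.7, 15.7, 27.7 and 3.91 CPM in BCAA-free vehicle mice. Its groups did not overlap, though the highest vehicle mouse lay next to the lowest 5+3 mouse, and the log2 change was 1.35 (SE 0.39, adjusted p = 0.0340). Mrpl3 had 25.7 to 74.2 CPM (median 65.7) in BCAA-free 5+3 mice, against 38.9, 15.9, 20.4, 40.5 and 19.4 CPM in BCAA-free vehicle mice, with a log2 change of 1.20 (SE 0.30, adjusted p = 0.0219). The lowest 5+3 mouse lay among the vehicle mice. Mrps5, homologous to a bacterial small-subunit protein, had 19.3 to 54.3 CPM (median 50.6) in BCAA-free 5+3 mice, against 27.9, 18.8, 21.6, 37.9 and 17.4 CPM in BCAA-free vehicle mice, with a log2 change of 0.84 (SE 0.25, adjusted p = 0.0432). Mrpl50 had 64.2 to 120.3 CPM (median 87.9) in BCAA-free 5+3 mice, against 84.2, 43.1, 44.4, 59.5 and 58.4 CPM in BCAA-free vehicle mice, with a log2 change of 0.63 (SE 0.19, adjusted p = 0.0455). Mrps5 and Mrpl50 overlapped between the groups.

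Mrps25, particular to mitochondria, fell and had 65.2 to 145 CPM (median 101) in BCAA-free 5+3 mice, against 217, 182, 128, 171 and 144 CPM in BCAA-free vehicle mice, with a log2 change of -0.74 (SE 0.22, adjusted p = 0.0366). Mrpl24, with a bacterial homologue in the large subunit, fell and had 93.8 to 158 CPM (median 139.7) in BCAA-free 5+3 mice, against 178, 186, 148, 174 and 249.8 CPM in BCAA-free vehicle mice, with a log2 change of -0.52 (SE 0.16, adjusted p = 0.0490). The groups overlapped for both. Mrps25 overlaps the gene Nr2c2, Mrpl24 overlaps Rrnad1 and Mrps27 overlaps 6430562O15Rik. These mRNA calls depended on the mice used. The count ran over 0 to 9 when 1 mouse was left out. The balance turned to 3 higher and 5 lower without BCAA-free 5+3 mouse 7, to 0 higher and 2 lower without BCAA-free vehicle mouse 3 and to 0 higher and 1 lower without vehicle mouse 5. Each of the 6 members missed the threshold in 4 to 10 of 12 such fits, and none passed without the 4 mice that stood apart, when 19 genes passed in all and the member median was 0.24. The red cell and neutrophil markers given above fell in the same libraries.

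**Figure D4:**
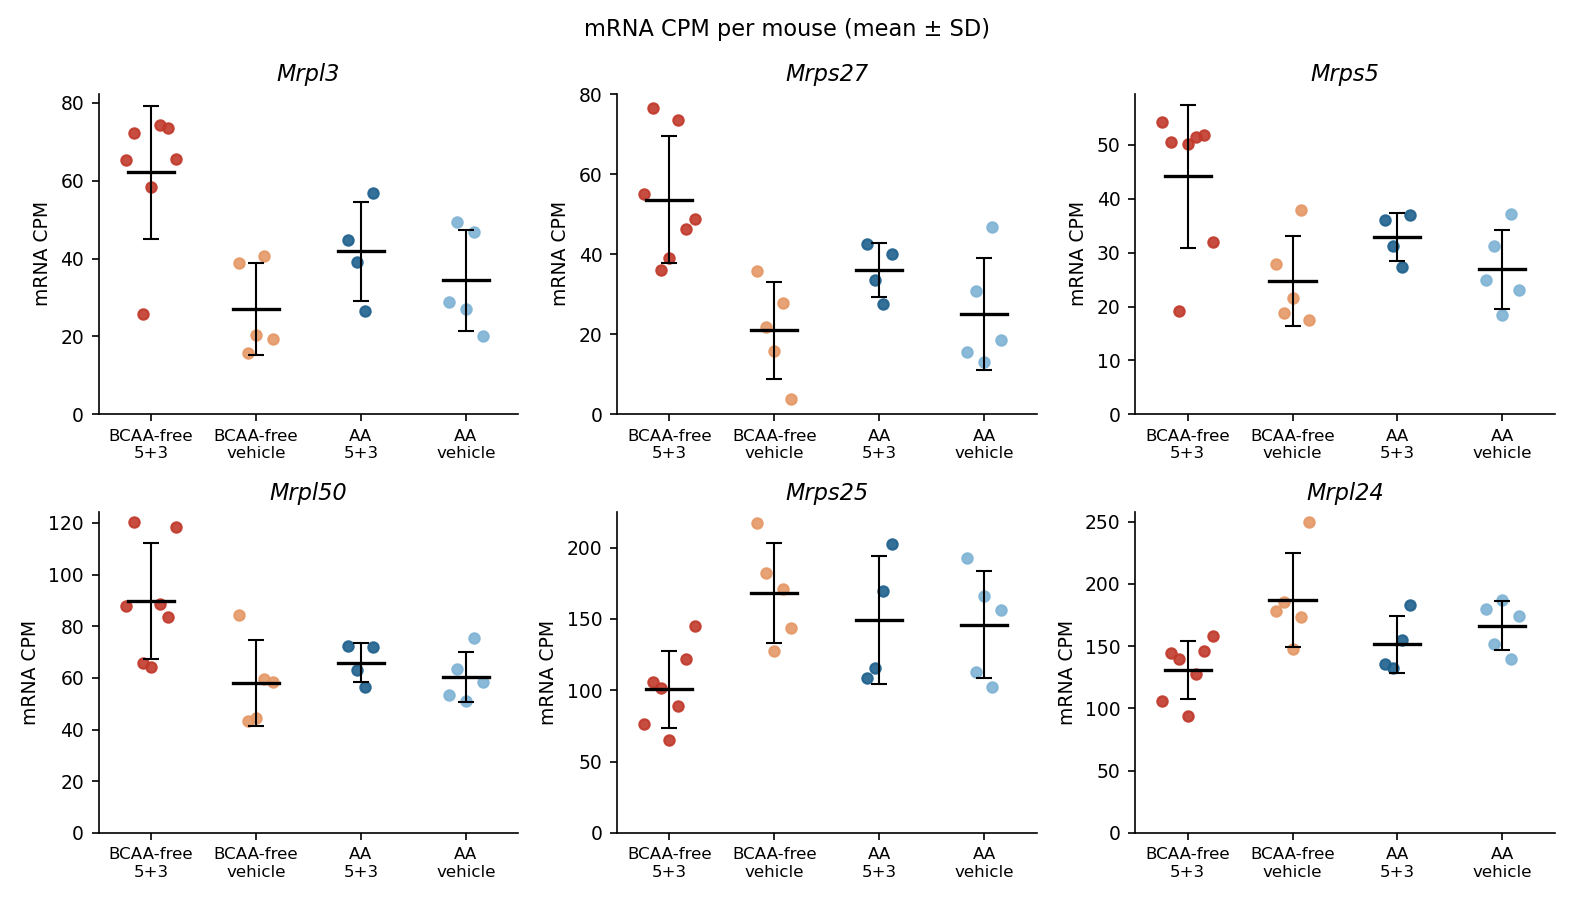
mRNA CPM per mouse of Mrpl3, Mrps27, Mrps5, Mrpl50, Mrps25 and Mrpl24 in the 4 groups, each point 1 mouse, with the group mean and SD. Values spread widely within groups: Mrpl3 in BCAA-free 5+3 mice runs over 25.7 to 74.2 CPM.

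No member was called in mRNA by edgeR in the other comparisons, with or without the 4 mice that stood apart. After 5+3 on the AA diet 0.0616% of all genes passed (0.0189% higher, 0.0426% lower). No member had an unadjusted p under 0.05, beside 1243 of 21114 genes, and DESeq2 called 0 members. The smallest p-values were those of Mrps30, at -0.53 (adjusted p = 0.899), and Mrps22, at 0.53 (adjusted p = 0.917). Between diets under 5+3 1.24% of all genes passed (0.559% higher, 0.682% lower). An unadjusted p under 0.05 was found for 9 of 78 members and 2739 of 21114 genes, and DESeq2 called 0 members. Mrps9 mRNA was there 60.1 to 90.7 CPM (median 74.0) in BCAA-free 5+3 mice, against 48.9, 47.6, 49.8 and 50.8 CPM in AA 5+3 mice, without overlap, at 0.59 (adjusted p = 0.112), and Mrpl2 stood at 0.65 (adjusted p = 0.190). Between diets under vehicle 0.0% of genes passed. An unadjusted p under 0.05 was found for 10 of 78 members and 2363 of 21114 genes, and DESeq2 called 0 members. Mrpl11 stood at 0.69 (adjusted p = 0.347) and Mrps23 at 0.65 (adjusted p = 0.360). The member median was 0.25 with all mice. Without the 4 mice that stood apart, 2 BCAA-free vehicle mice remained and the median was -0.06, so its sign turned. No member then had an unadjusted p under 0.05 in edgeR's test, beside 1460 of 24387 genes. For the interaction 0.0758% of genes passed (0.0237% higher, 0.0521% lower). An unadjusted p under 0.05 was found for 5 of 78 members and 2545 of 21114 genes, and DESeq2 called 0 members. Mrps30 stood at 1.13 (adjusted p = 0.266) and Mrps6 at -0.96 (adjusted p = 0.310). The median standard error of a member's log2 change was 0.24 to 0.27 in mRNA, against 0.117 to 0.135 in footprints, in the pairwise comparisons, and 0.36 in mRNA, against 0.178 in footprints, for the interaction, so mRNA changes were measured with less precision despite more counts.

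Translational efficiency, the footprint change minus the mRNA change, was tested over all 42 libraries with the mouse as a block. After 5+3 on the BCAA-free diet 1 member rose and 2 fell, 3.85% of the members, beside 10.3% of 12097 genes (2.70% higher, 7.61% lower). The median over the members was 0.09, against -0.24 over all genes and -0.29 over protein-coding genes. Mrps6, homologous to a bacterial small-subunit protein, rose by 1.02 (SE 0.27, adjusted p = 0.0290). Mrps6 mRNA was 25.4 to 54.0 CPM (median 35.5) in BCAA-free 5+3 mice, against 79.5, 56.2, 40.3, 60.1 and 61.9 CPM in BCAA-free vehicle mice, so that the median 5+3 mouse lay below every vehicle mouse. Mrps27 fell at -1.41 (SE 0.42, adjusted p = 0.0393) and Mrpl3 at -1.09 (SE 0.31, adjusted p = 0.0355), the members with the highest mRNA changes in the same comparison. Each of the 3 calls was lost in 7 of 12 fits without 1 mouse, the count ran over 0 to 9, and no member passed without the 4 mice that stood apart, when the member median was -0.09 against -0.20 over all genes, so the sign of the member median turned. DESeq2 gave 6 higher and 2 lower, protein-coding genes alone 3 higher and 2 lower, and the fit without the mouse block 2 higher and 1 lower, so the balance of direction depended on the fit. It also turned to 7 higher and 2 lower without BCAA-free 5+3 mouse 7, to 3 higher and 2 lower without 5+3 mouse 6 and to 1 higher and none lower without BCAA-free vehicle mouse 3. Mrps6 overlaps Slc5a3.

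The other efficiency comparisons called no member by edgeR or by DESeq2, and none by edgeR without the 4 mice that stood apart. After 5+3 on the AA diet 0.0% of genes passed, no member had an unadjusted p under 0.05, and Mrps30 stood at 0.65 (adjusted p = 1.000) and Mrpl48 at 0.41 (adjusted p = 1.000). Between diets under 5+3 0.0165% of genes passed (0.00827% higher, 0.00827% lower). An unadjusted p under 0.05 was found for 1 of 78 members and 1008 of 12097 genes. Mrpl38 stood at -0.54 (adjusted p = 0.566) and Mrpl43 at 0.44 (adjusted p = 0.633). Between diets under vehicle 0.0% of genes passed. An unadjusted p under 0.05 was found for 3 of 78 members and 1103 of 12097 genes. Mrps6 stood at -0.83 (adjusted p = 0.499) and Mrpl54 at -0.64 (adjusted p = 0.534).

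The level of footprints relative to mRNA was low for these genes in all groups. The log2 ratio of footprint CPM to mRNA CPM had a median over the members of -2.83 in BCAA-free 5+3, -2.97 in BCAA-free vehicle, -2.71 in AA 5+3 and -2.77 in AA vehicle mice. Over 9147 protein-coding genes the medians were -1.42 in BCAA-free 5+3, -1.10 in BCAA-free vehicle, -1.22 in AA 5+3 and -1.22 in AA vehicle mice. The member median was above 15.9% of those genes in BCAA-free 5+3, 11.9% in BCAA-free vehicle, 15.6% in AA 5+3 and 14.9% in AA vehicle mice. Per mouse, the member median averaged -2.73 ± 0.418 (SD, n = 7) in BCAA-free 5+3, -2.89 ± 0.284 (n = 5) in BCAA-free vehicle, -2.65 ± 0.327 (n = 4) in AA 5+3 and -2.73 ± 0.122 (n = 5) in AA vehicle mice, so the groups lay within their spread. It averaged, without the 4 mice that stood apart, -2.63 in 6 BCAA-free 5+3 mice and -2.68 in 2 BCAA-free vehicle mice. Cytosolic ribosomal proteins (87 genes) had medians of -1.04 in BCAA-free 5+3, -2.05 in BCAA-free vehicle, -1.46 in AA 5+3 and -1.29 in AA vehicle mice. The ratio carries no correction for length: footprints cover the coding sequence only and mRNA counts the whole transcript.

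Members ranged widely in this ratio. In AA vehicle mice the lowest log2 ratios were those of Mrpl33 (-4.77), Mrps12 (-4.64), Mrpl53 (-4.53), Mrpl42 (-4.18) and Mrpl18 (-4.10). The highest were those of Mrps22 (0.08), Mrps5 (-0.08), Mrps31 (-0.61), Mrpl3 (-0.62) and Mrps27 (-0.70). In BCAA-free 5+3 mice the same 5 members were lowest in another order, Mrpl42 (-4.60), Mrpl53 (-4.59), Mrpl33 (-4.48), Mrps12 (-4.29) and Mrpl18 (-4.17), while Mrps27 stood at -1.58 and Mrps22 at -0.54.

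**Figure D5:**
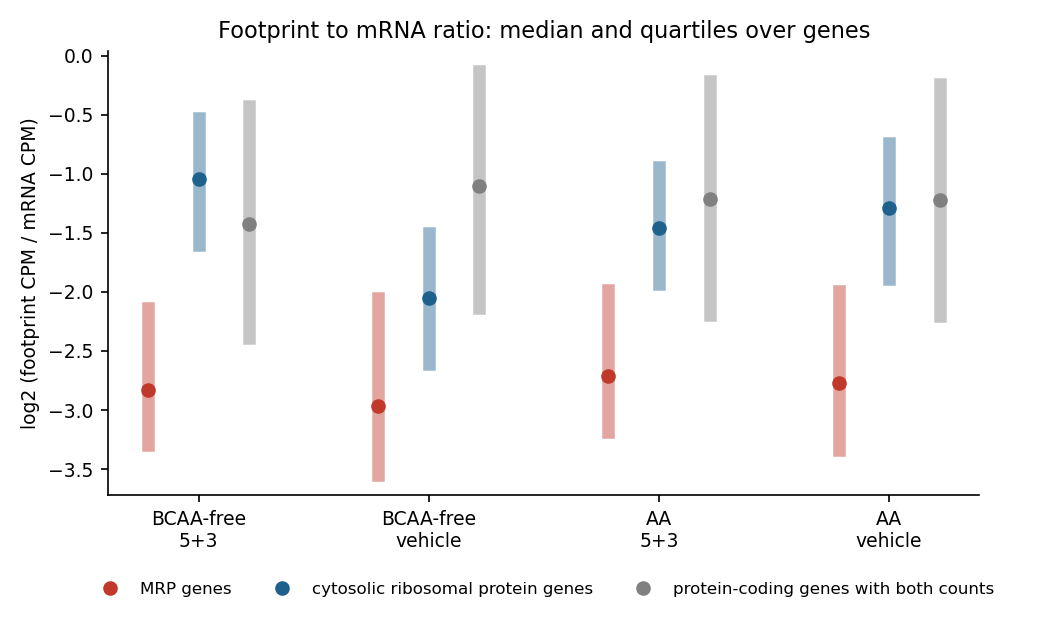
Log2 ratio of footprint CPM to mRNA CPM in the 4 groups for the members, all protein-coding genes with enough counts and the cytosolic ribosomal proteins. Members have the lowest median in every group, between -2.97 and -2.71.

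The other parts of mitochondrial translation were read from lists chosen by function. The 13 proteins encoded in mitochondrial DNA, the products of these ribosomes, fell in footprints after 5+3 on the BCAA-free diet in 11 of 13, with a median of -0.62, and none rose, beside 20.6% of all genes called. They include mt-Co3 of complex IV at -0.72 (adjusted p = 0.000406) and mt-Atp6 of the ATP synthase at -0.62 (adjusted p = 0.000601). Their share of protein-coding footprint counts was 0.209 to 0.318% in BCAA-free 5+3 mice and 0.321 to 0.432% in BCAA-free vehicle mice, without overlap. Leaving out the 4 mice that stood apart, 5 of the 13 fell, at a median of -0.61, beside 2.39% of all genes, and the share was 0.209 to 0.284% in 6 BCAA-free 5+3 mice and 0.360 and 0.432% in 2 BCAA-free vehicle mice. In AA mice it was 0.273 to 0.338% after 5+3 and 0.278 to 0.457% under vehicle. None of the 13 was called in the other pairwise footprint comparisons, and the interaction passed for mt-Atp6 alone (-0.60, adjusted p = 0.0367). In mRNA none of the 11 that could be tested passed in the BCAA-free 5+3 comparison. Cycloheximide, used in the lysis buffer, arrests cytosolic ribosomes and not mitochondrial ones.

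Of 15 mitochondrial translation factors, 2 rose and 1 fell after 5+3 on the BCAA-free diet, beside 8.76% of all genes higher and 11.9% lower, and 1 rose on the AA diet, beside 3.49% higher. Slirp, which with Lrpprc stabilises mitochondrial mRNA, rose on the BCAA-free diet (0.38, adjusted p = 0.0134) and on the AA diet (0.51, adjusted p = 0.0133). The elongation factor Gfm1 rose (0.28, adjusted p = 0.0245) and the release factor Mtrf1l fell (-0.86, adjusted p = 0.00756) on the BCAA-free diet. Between diets under 5+3, 1 factor was higher and 5 lower, beside 12.5% of all genes higher and 15.8% lower. The higher one was Mtrf1, a release factor homologue (0.67, adjusted p = 0.0218). Among the lower ones were the elongation factor Tufm (-0.53, adjusted p = 0.00111), the recycling factors Gfm2 (-0.77, adjusted p = 0.00121) and Mrrf (-0.67, adjusted p = 0.00563) and Mtrf1l (-0.97, adjusted p = 0.00261).

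Of 26 assembly factors none rose and 3 fell after 5+3 on the BCAA-free diet, close to the 11.9% of all genes that were lower, and none passed on the AA diet, where 6.61% of all genes did. Between diets under 5+3, 3 of them were higher and 5 lower, close to the 28.3% of all genes called (12.5% higher, 15.8% lower). The lower ones included Mettl17 (-1.19, adjusted p = 0.000696) and Noa1 (-0.66, adjusted p = 0.00529). Neither list had a call between diets under vehicle. Of 5 mitoribosomal proteins with other symbols, Gadd45gip1 rose on the AA diet (0.48, adjusted p = 0.0184) and no other call was made in the pairwise footprint comparisons. Cytosolic ribosomal proteins, which take part in translation outside mitochondria, rose after 5+3 on the BCAA-free diet in 23 of 89 and fell in none, beside 8.76% of all genes higher and 11.9% lower. On the AA diet none rose and 1 fell, beside 3.49% higher and 3.12% lower, and between diets under 5+3 41 were higher and 1 lower, beside 12.5% higher and 15.8% lower. When the 4 mice that stood apart were left out, 5+3 on the BCAA-free diet called no translation or assembly factor and 1 cytosolic ribosomal protein, higher, beside 2.39% of all genes. Between diets under 5+3 1 translation factor was then higher and 4 lower, 2 assembly factors were higher and 3 lower, and 46 cytosolic ribosomal proteins were higher and none lower, beside 23.9% of all genes.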

How the data were processed

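The authors deposited raw read counts per Ensembl gene for 21 footprint and 21 mRNA libraries, 1 of each per mouse. Per the submitters' processing notes, cutadapt, Bowtie2, STAR, SAMtools and featureCounts were used with GRCm38/mm10; tool versions and strandedness were not stated there. Symbols were found for 99.4% of identifiers, and no per-sample column was left unused (0).

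Counts were scaled by TMM and tested with edgeR 4.0.16 (R 4.3.3, limma 3.58.1), quasi-likelihood, after filterByExpr with a minimum count of 10 and total of 15. A single fit over the 4 groups was made for each kind of library, with Benjamini-Hochberg adjustment over all genes tested and a threshold of 0.05. Translational efficiency was the interaction of library kind with group in 42 libraries, with the mouse as a block, since its libraries share 1 lysate. Deviations of a mouse's 2 libraries from their group means correlated with a median r of 0.109 (-0.04 to 0.35). Of 21 mRNA libraries, 8 correlated best with the footprint library of their own mouse. Footprint to mRNA ratios used 9147 protein-coding genes with a mean count of at least 10 in both kinds. The fits were tested on simulated data. DESeq2 1.42.0, median-ratio scaling, no filter, protein-coding genes only, only the 2 groups compared, replicate blocks, leaving out 1 mouse and leaving out 4 mice were alternatives. For shares, ratios and lists other than the members, leaving out the 4 mice was added after seeing the data.

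Members and lists were chosen with earlier results of these data known. Named genes were a panel of 14, up to 6 called members per direction and comparison, and the 2 with the smallest p where none passed. Levels per length were not compared, because exon lengths were not available in the tables used. Counting limits the precision: the members' median mean count was 91.8 in footprints. P-values measure the spread between mice that received 1 leukaemia. Promoters are from RefSeq (GRCm38.p6).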

Additional observations from a re-analysis of the deposited data

Results flagged for a closer look

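In groups of 4 to 10 mice, the highest or lowest value was looked at for its gap to the next one. Of 164 groups read, 8 had such a gap, and chance gives about 1 in 20. Mrpl23 footprints had a lowest AA 5+3 mouse at 24.9 CPM and Mrps25 footprints one at 15.4 CPM, apart from the other 3 mice. Mrps18a footprints had a highest BCAA-free vehicle mouse at 20.5 CPM, and Mrps36 footprints a lowest one at 16.1 CPM. Mrpl3 mRNA had a lowest BCAA-free 5+3 mouse at 25.7 CPM, in the group whose Mrpl3 mRNA rose past the threshold. The ratio of Mrpl to Mrps footprints had a lowest BCAA-free 5+3 mouse at 1.70. In AA 5+3, 1 mouse had the highest share of the members among protein-coding counts in footprints, 0.295%, and 1 in mRNA, 1.44%.

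The change after 5+3 differed between the diets in 2 members by the interaction test. The footprint change on the BCAA-free diet minus that on the AA diet was -0.60 on the log2 scale for Mrpl21 and -0.57 for Mrpl14.

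Footprint counts also appeared on pseudogenes that the choice of members left out. The mean per library was 81.6 for Mrps36-ps1, 170.0 for Mrpl23-ps1, 89.8 for Mrpl48-ps and 64.9 for Mrps36-ps2. In mRNA libraries, which were deeper, the same rows had means of 33.3 for Mrps36-ps1, 388 for Mrpl23-ps1, 32.1 for Mrpl48-ps and 6.57 for Mrps36-ps2. The genes themselves had mean footprint counts of 91.4 (Mrps36), 169 (Mrpl23) and 137 (Mrpl48).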

How the results depend on the processing

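Counts of called members moved with several settings; where no value shows it, the cause was not tested. For 5+3 on the BCAA-free diet, footprint calls were 4 with no filter on low counts, 21 with protein-coding genes only and 0 without the 4 mice. Over all genes these fits called, in that order, 2785 of 44314, 2187 of 9875 and 395 of 16545. On the AA diet the members called were 2 with no filter (1187 of 44314 genes) and 2 with only the 2 groups compared (900 of 15029 genes). Between diets under 5+3 they were 8 with no filter (4008 of 44314 genes) and 25 with protein-coding genes only (3020 of 9875 genes). Under vehicle 1 member was called with protein-coding genes only (310 of 9875 genes). The interaction gave 0 with no filter, 1 with DESeq2, 0 with protein-coding genes only and 1 without the 4 mice. Over all genes it gave, in that order, 1341 of 44314, 1258 of 15723, 474 of 9875 and 109 of 16545. In mRNA, 5+3 on the BCAA-free diet gave 3 with no filter, 10 with DESeq2, 0 without the 4 mice and 1 with only the 2 groups compared. The same fits called 1424 of 48144, 3331 of 21114, 19 of 24387 and 701 of 18014 genes, so calls over all genes moved as well. Translational efficiency there gave 8 with DESeq2 (6 higher, 2 lower), 5 with protein-coding genes only (3 higher, 2 lower), 0 without the 4 mice and 1, higher, with only the 2 groups compared. These fits called 1774 of 12097, 903 of 9651, 0 of 12975 and 621 of 11083 genes. The balance of members, 1 higher and 2 lower with all mice, turned to more higher than lower with DESeq2, with protein-coding genes only, with only the 2 groups compared and without the mouse block, and not with no filter (0 higher, 2 lower) or median-ratio scaling (1 higher, 2 lower).

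Replicate numbers recur across groups, but same-numbered mice did not deviate together in every pair: over 27 pairs the median r was -0.01 in footprints (-0.18 to 0.35) and 0.04 in mRNA (-0.51 to 0.55), and 5 of 21 footprint and 6 of 21 mRNA libraries correlated best with a library of their own number. With a replicate block, footprint calls between diets under 5+3 were 8 (3307 of 15723 genes) and the interaction 0 (406 genes). The mRNA calls for 5+3 on the BCAA-free diet were 13 (6 higher, 7 lower), beside 1520 higher and 1223 lower of 21114 genes. Without the mouse as a block, efficiency calls were 3 (2 higher, 1 lower), beside 387 higher and 938 lower of 12097 genes.

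When 1 mouse was left out, footprint calls ran over 5 to 10 for 5+3 on the BCAA-free diet, 0 to 5 on the AA diet, 7 to 16 between diets under 5+3, 0 to 1 under vehicle and 0 to 2 for the interaction. mRNA and efficiency calls for 5+3 on the BCAA-free diet each ran over 0 to 9, and their balance turned in 3 fits each, named above. No member named for a call or a smallest p reversed its sign, in the comparison that named it, in any setting run. Signs of the panel members in other comparisons were not followed. As a share of all counts, the members took 0.166% of footprints in BCAA-free 5+3, 0.151% in BCAA-free vehicle, 0.150% in AA 5+3 and 0.143% in AA vehicle mice. On protein-coding counts the member footprint to mRNA ratio was -1.90 in BCAA-free 5+3, -2.07 in BCAA-free vehicle, -1.94 in AA 5+3 and -1.93 in AA vehicle mice. Footprint counts limit precision: at the median standard error of 0.117 to 0.135 in the pairwise comparisons and 0.178 for the interaction, small changes of single members could not be resolved.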
